A study of Saccharomyces cerevisiae with 8 samples.

Results

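Acetate, lactate and the glyoxylate cycle let budding yeast (Saccharomyces cerevisiae) build sugars from carbon compounds that are too small for glycolysis. A set of 10 genes was chosen by name for these steps. ACS1 and ACS2 serve acetate activation, and ICL1, MLS1, MDH2 and CIT2 serve the glyoxylate cycle. IDP2 serves cytosolic NADPH supply, and JEN1 and CYB2 serve lactate uptake and oxidation. CAT8 encodes an activator of several of these genes. The coding transcript of each of the 10 was looked up by systematic name in the deposited annotation. It held 9 of the 10 among its 4928 coding transcripts. CAT8 was not analysed here. All 9 passed the filter on low counts and were tested.

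In this pathway acetyl-CoA synthetases join acetate to coenzyme A, and the glyoxylate cycle then turns acetyl units into C4 acids while bypassing the steps of the tricarboxylic acid cycle that release carbon dioxide. On glucose most of these genes are repressed. When glucose runs out, the kinase Snf1 and the zinc cluster activators Cat8 and Sip4 turn on several of them through a promoter sequence called the carbon source-responsive element (CSRE). CIT2 is controlled differently, because the Rtg1-Rtg3 factors switch it on when mitochondrial function is impaired.

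Newly made RNA was measured in cultures in YPD, a rich glucose medium, at 30 °C and an OD600 of 0.8, after a 6 min pulse with 5 mM 4-thiouracil, a uracil analogue that marks RNA made during the pulse. Each of the 4 groups had 2 libraries: a parent strain and strains with the allele med7-1002, med21-1002 or med10-1002 of a subunit of Mediator, the complex that connects activators with RNA polymerase II. Per the labels, all 4 strains share MATa, ade-, his3-11,15, the double allele of leu2-3 with leu2-112, ura3 with trp1-1, cyh2r with can1-100, and hsp82- DHSE-lacZ, so the parent carries these as well. The labels describe none of the mutant alleles as a deletion, so levels of MED7, MED21 or MED10 RNA are no test of the labels, and nothing says that both libraries of a group came from separate cultures. The comparisons ask what each allele does to transcription of these genes in glucose medium.

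Between 10962170 and 23629303 reads were assigned to transcripts per library. The med7-1002 libraries stood apart. The log2 difference between replicates had an SD of 0.924 over 5746 transcripts there, against 0.269 in parent, 0.367 in med21-1002 and 0.23 in med10-1002. Markers of mating type also went against the label MATa in the parent, med21-1002 and med10-1002 libraries, where 4 genes specific to alpha cells summed to 883 to 1315 CPM (read counts scaled to the library total) and 5 genes specific to a cells to 15.6 to 64.6. Most of the sum of a-cell genes in med10-1002 came from STE2 (1237 and 1161 counts). In med7-1002 the sums for alpha and a cells were 60.4 to 63.3 and 501 to 600.8. Most of its alpha sum came from SAG1 (597 and 1390 counts), while MF(ALPHA)1, which encodes alpha-factor, had 10 and 0 counts. Differences of med7-1002 from any other group therefore include a difference in mating type, and its part in the results below was not tested. Transcripts over 2000 nt also stood lower in med7-1002 replicate 1, at a median log2 difference of −0.45 from the parent mean, while those up to 1000 nt stood at 0.702. The 9 transcripts span 1449 to 2356 nt, and none of their calls in this mutant was lost with a correction for length.

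The CSRE is shown first because it is the sequence by which the pathway is known to be switched on. Its consensus was searched on both strands in the 600 bases before the coding start. It matched 5 times, upstream of 4 of the 9 genes (ACS1, ICL1, MLS1 and MDH2), against 24 of 4842 coding genes (0.496%). The matches are printed below in 30 bases of the gene's own strand, 5′ to 3′, from the R64 genome of RefSeq, with the matched letters in capitals.
ICL1, chrV:287292-287321, minus strand: cccaggtttCCATTCATCCGagcgatcact
MDH2, chrXV:83277-83306, minus strand: ttactttgcCCATTCGGCCGtagccgttct
MLS1, proximal, chrXIV:405849-405878, plus strand: tcatagcttCCATTGGGCCGatgaagttag
MLS1, distal, chrXIV:405818-405847, plus strand: cattgctatCGGCTCAATGGaaatccccat
ACS1, chrI:45427-45456, minus strand: taatcatctCGGACGAACGGcgtagcactc
The ICL1, MDH2 and proximal MLS1 matches read in the direction of the gene, and the ACS1 and distal MLS1 matches read on the other strand. No match was found upstream of ACS2, CIT2, IDP2, JEN1 or CYB2 in this window, which says only that these letters are not there. The window decides the count: within 300 bases none of the 9 genes had a match, against 0.165% of all coding genes. Within 1000 bases 5 had one, CIT2 being added, against 0.929% of all.

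Shorter motifs were common in all genes. The core of the R box bound by Rtg1-Rtg3 (GTCAC) lay in the 600 bases of 6 of the 9 genes and of 49.0% of all coding genes. The core of the Hap complex site (CCAAT) lay in 9 of 9 and in 70.6% of all. The core of the Mig1 repressor site (CCCCGC or CCCCAC, also CCCCGG or CCCCAG) lay in 7 of 9 and in 27.4% of all. Here too the window decides the count: within 300 bases the Mig1 core lay in 2 of 9. Within 1000 bases it lay in 8 of 9, JEN1 being added, and in 41.5% of all. Below are the 250 bases before the annotated transcript start of ICL1, JEN1 and CYB2. Their calls differed between the mutants, as did those of other genes of the set. Capitals mark every match to the 4 motifs on either strand.
ICL1, chrV:287183-287432, minus strand: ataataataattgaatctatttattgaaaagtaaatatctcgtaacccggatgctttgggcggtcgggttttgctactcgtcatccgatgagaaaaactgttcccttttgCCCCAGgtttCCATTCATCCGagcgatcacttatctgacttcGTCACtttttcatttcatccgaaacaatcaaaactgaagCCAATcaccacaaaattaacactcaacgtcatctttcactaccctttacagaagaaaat
JEN1, chrXI:21658-21907, plus strand: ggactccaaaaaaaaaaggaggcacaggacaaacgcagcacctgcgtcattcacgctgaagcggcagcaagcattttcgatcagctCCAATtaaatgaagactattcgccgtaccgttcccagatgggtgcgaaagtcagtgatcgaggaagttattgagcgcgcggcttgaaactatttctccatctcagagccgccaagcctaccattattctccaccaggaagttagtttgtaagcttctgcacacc
CYB2, chrXIII:167352-167601, minus strand: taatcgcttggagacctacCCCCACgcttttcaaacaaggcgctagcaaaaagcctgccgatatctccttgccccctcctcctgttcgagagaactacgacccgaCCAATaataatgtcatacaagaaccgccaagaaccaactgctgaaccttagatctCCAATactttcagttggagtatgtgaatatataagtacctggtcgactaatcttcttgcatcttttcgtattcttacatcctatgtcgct
In these windows ICL1 held 1 match to each of the 4 motifs and JEN1 held a Hap core alone. CYB2 held 2 Hap cores and 1 Mig1 core. The nearest Mig1 core of JEN1 lay 281 nt before its transcript start, just outside the bases printed here.

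Levels are given as CPM after TMM scaling, which adjusts library sizes so that most transcripts do not differ. To compare genes, CPM was divided by the annotated transcript span in kb. In parent, CIT2 stood highest at 274 ± 24.2 CPM per kb (SD, n = 2 here and below), followed by ACS2 at 177 ± 7.78, MDH2 at 127 ± 9.24, IDP2 at 28.4 ± 1.04 and ICL1 at 19.1 ± 0.424. CYB2 stood at 5.30 ± 0.199 CPM per kb, ACS1 at 3.39 ± 0.462, JEN1 at 2.497 ± 0.214 and MLS1 at 1.06 ± 0.0487. So 3 genes dominated, and the lowest 4 were CYB2, ACS1, JEN1 and MLS1. No neighbours in this order overlapped between their libraries in parent, med7-1002 or med10-1002, while ICL1 and CYB2 overlapped in med21-1002, at 14.7 ± 2.55 and 14.6 ± 2.20 CPM per kb. In med7-1002 ACS2 took the first place from CIT2, at 385 ± 91.9 CPM per kb, CYB2 stood above IDP2 and ICL1, and ACS1 stood above ICL1. In med10-1002 the one exchange was that JEN1 stood above ACS1.

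**Figure D1:**
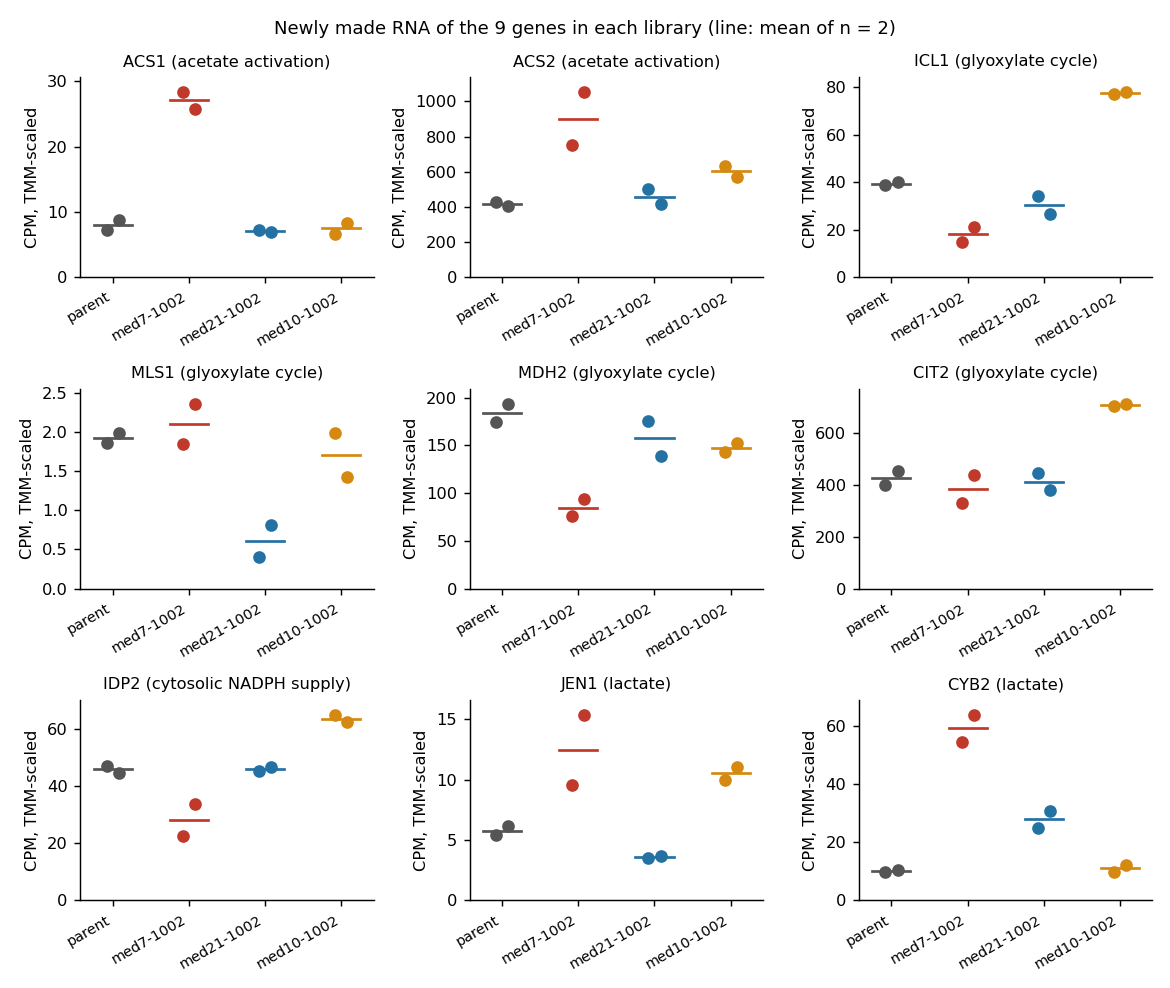
CPM (TMM-scaled, linear axes from 0) of the 9 genes in each library, by group; points are libraries and lines the mean of n = 2. ACS1 and CYB2 stand highest in med7-1002, ICL1 and CIT2 in med10-1002, and MLS1 lowest in med21-1002 at 0.401 and 0.813 CPM.

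Transcripts with a Benjamini-Hochberg adjusted p under 0.05 in edgeR's quasi-likelihood test over all 5746 transcripts count as changed; all adjusted p below are from this test. Against parent, med7-1002 changed 7 of the 9 genes, with CYB2, ACS1, ACS2 and JEN1 higher and MDH2, ICL1 and IDP2 lower. In this mutant 48.6% of all transcripts changed, 25.9% higher and 22.6% lower, so a large share of changed genes is the background there. The balance turned with the scaling: by library size alone 1279 transcripts were higher and 1710 lower, against 1489 and 1301 here. In med21-1002 CYB2 alone rose (1 of 9, against 7.8% of all transcripts, 3.88% higher and 3.92% lower), and in med10-1002 ICL1 and CIT2 rose (2 of 9, against 7.55% of all, 4.93% higher and 2.63% lower). The median log2 fold change of the 9 genes was 0.14 in med7-1002, −0.17 in med21-1002 and 0.47 in med10-1002, beside medians of 0.02, −0.00 and −0.01 over all transcripts. The 3 comparisons share the parent libraries. For 7 of the 9 genes both med7-1002 libraries lay above or below both parent libraries, against 71.6% of all transcripts. This held for 5 genes in med21-1002 (62.9% of all) and 6 in med10-1002 (76.6%). Between mutants it held for 7 or 8 genes and for 63.6% to 74.9% of all transcripts. Lack of overlap alone is thus the background here.

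All groups share 1 estimate of the spread. Without the med7-1002 libraries, 4 of the 9 genes passed in med21-1002 (29.7% of all transcripts, 14.8% higher and 14.9% lower): CYB2 rose and ICL1, MLS1 and JEN1 fell. Likewise 5 passed in med10-1002 (36.9% of all, 20.8% higher and 16% lower): ACS2, ICL1, CIT2, IDP2 and JEN1, all higher. Between med21-1002 and med10-1002, 7 then passed, 1 higher and 6 lower in med21-1002 (47.4% of all transcripts, 22.4% higher and 24.9% lower). The added calls of that pair were ACS2 (log2 −0.42, adjusted p = 0.00559), MLS1 (log2 −1.56, adjusted p = 0.0150) and IDP2 (log2 −0.49, adjusted p = 0.00167), all lower in med21-1002.

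**Figure D2:**
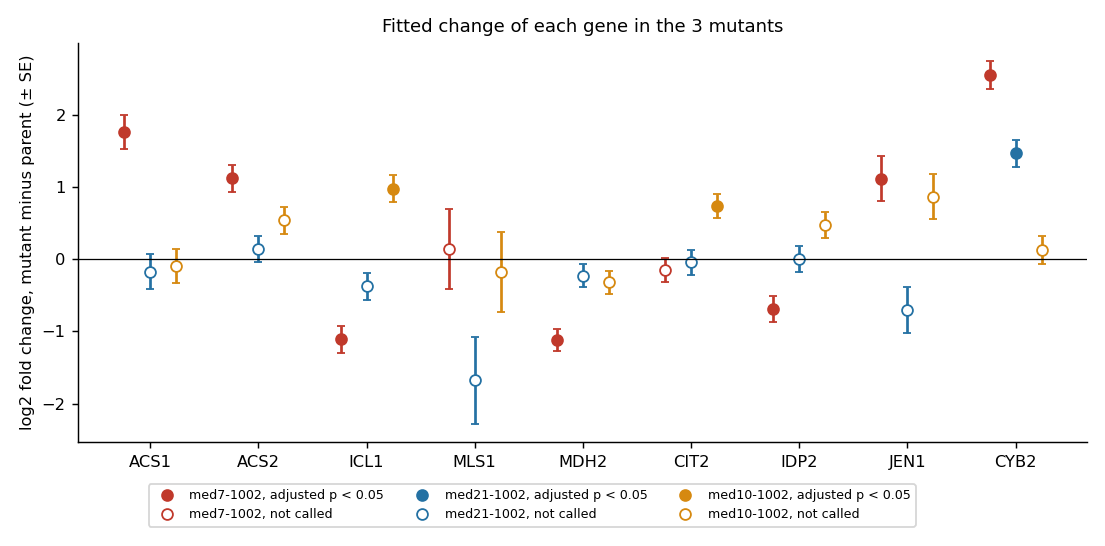
Fitted log2 fold change against parent (± SE) of the 9 genes in the 3 mutants, n = 2 libraries a group; filled points passed the threshold in the fit of all 8 libraries. In med7-1002 changes run from −1.12 for MDH2 to 2.55 for CYB2, and ICL1 stands below 0 in med7-1002 and above it in med10-1002.

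Acetate is activated by a pair of acetyl-CoA synthetases. ACS1 (YAL054C, R64 chromosome I, 42718 to 45073, minus strand) encodes the enzyme that glucose represses. It read 7.23 and 8.77 CPM for the parent pair, 28.4 and 25.8 for med7-1002, 7.21 and 6.98 for med21-1002, then 6.60 and 8.33 for med10-1002. Both med7-1002 libraries lay above all 6 others, which lay between 6.60 and 8.77 CPM. ACS1 rose 3.39-fold in med7-1002 (log2 1.76, SE 0.24, adjusted p = 0.000387) and did not pass in med21-1002 (−0.17, adjusted p = 0.741) or med10-1002 (−0.10, adjusted p = 0.842). It was also higher in med7-1002 than in med21-1002 (log2 1.93, SE 0.24, adjusted p = 0.000471) and than in med10-1002 (log2 1.86, SE 0.24, adjusted p = 0.000262).

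ACS2 (YLR153C, chromosome XII, 445263 to 447606, minus strand) encodes the synthetase that is made on glucose, and it was the more abundant of the pair in every library. It read 428 and 402 CPM for the parent pair, 749 and 1054 for med7-1002, 500 and 417 for med21-1002, then 633 and 570 for med10-1002. The med7-1002 and med10-1002 libraries lay above both parent libraries, and the med21-1002 libraries overlapped them. ACS2 rose 2.17-fold in med7-1002 (log2 1.12, SE 0.19, adjusted p = 0.00122). In med10-1002 its log2 fold change was 0.54 (SE 0.19, adjusted p = 0.115), and it passed there without the med7-1002 libraries (0.56, adjusted p = 0.00145).

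ICL1 and MLS1 encode the enzymes found only in the glyoxylate cycle. ICL1 (YER065C, chromosome V, 285119 to 287182, minus strand) encodes isocitrate lyase, which splits isocitrate into succinate and glyoxylate. It read 38.7 and 39.98 CPM for the parent pair, 14.9 and 21.2 for med7-1002, 34.1 and 26.6 for med21-1002, then 76.9 and 77.9 for med10-1002. The 4 groups did not overlap. ICL1 fell in med7-1002 (log2 −1.11, SE 0.19, adjusted p = 0.00146) and rose 1.97-fold in med10-1002 (log2 0.98, SE 0.19, adjusted p = 0.0187). The call in med10-1002 was lost without parent replicate 1 or 2 (adjusted p = 0.169 and 0.160) and without med10-1002 replicate 1 or 2 (0.134 and 0.147), while the log2 change stayed between 0.94 and 1.00 in all 18 alternatives. In med21-1002 its log2 fold change was −0.37 (adjusted p = 0.298, and 0.0416 without the med7-1002 libraries).

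The difference between alleles was itself tested for ICL1. It was lower in med7-1002 than in med10-1002 (log2 −2.09, SE 0.19, adjusted p = 5.16e-05) and lower in med21-1002 than in med10-1002 (log2 −1.35, SE 0.19, adjusted p = 0.00216). In the fit of all 8 libraries ICL1 was the only one of the 9 genes with calls in opposite directions against parent.

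MLS1 (YNL117W, chromosome XIV, 406295 to 408111, plus strand) encodes malate synthase, which joins glyoxylate to acetyl-CoA. It was counted so rarely that the counts are more telling than CPM: 35 and 36 for the parent pair, 21 and 48 for med7-1002, 8 and 12 for med21-1002, then 42 and 29 for med10-1002. Scaled, both med21-1002 libraries lay below the other 6, and those 6 overlapped. Its log2 fold change was −1.68 in med21-1002 (SE 0.60, adjusted p = 0.143, and 0.0151 without the med7-1002 libraries), 0.14 in med7-1002 (adjusted p = 0.859) and −0.18 in med10-1002 (adjusted p = 0.880). With 8 to 48 counts per library its SE was 0.55 to 0.60, the widest of the 9 genes.

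MDH2 and CIT2 encode a malate dehydrogenase of the cytosol and a citrate synthase of the peroxisome. MDH2 (YOL126C, chromosome XV, 81548 to 82996, minus strand), whose enzyme regenerates oxaloacetate, read 175 and 194 CPM for the parent pair, 76.0 and 93.5 for med7-1002, 176 and 138 for med21-1002, then 143 and 152 for med10-1002. The med7-1002 libraries lay below the other 6. MDH2 fell there (log2 −1.12, SE 0.16, adjusted p = 0.000502), and it was also lower in med7-1002 than in med21-1002 (log2 −0.89, adjusted p = 0.00250) and med10-1002 (log2 −0.80, adjusted p = 0.00264). It did not pass in med21-1002 (−0.23, adjusted p = 0.457) or med10-1002 (−0.32, adjusted p = 0.240).

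CIT2 (YCR005C, chromosome III, 120841 to 122388, minus strand) read 398 and 451 CPM for the parent pair, 330 and 437 for med7-1002, 445 and 378 for med21-1002, then 704 and 712 for med10-1002. The med10-1002 libraries lay above the other 6, which overlapped. CIT2 rose 1.67-fold in med10-1002 (log2 0.74, SE 0.17, adjusted p = 0.0362). The call was lost without either library of parent (adjusted p = 0.277 and 0.146), med10-1002 (0.160 and 0.220) or med21-1002 (0.0685 and 0.0709), with log2 changes between 0.65 and 0.82 in the 18 alternatives. CIT2 was also higher in med10-1002 than in med7-1002 (med7-1002 minus med10-1002, log2 −0.88, adjusted p = 0.00222) and than in med21-1002 (med21-1002 minus med10-1002, log2 −0.78, adjusted p = 0.0146). The call between med21-1002 and med10-1002 was lost without med21-1002 replicate 2 (adjusted p = 0.144) and without med10-1002 replicate 1 or 2 (0.0620 and 0.103).

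IDP2 (YLR174W, chromosome XII, 504304 to 505912, plus strand) encodes the cytosolic isocitrate dehydrogenase that makes NADPH. It read 46.9 and 44.6 CPM for the parent pair, 22.6 and 33.8 for med7-1002, 45.2 and 46.5 for med21-1002, then 64.7 and 62.3 for med10-1002. The med7-1002 libraries lay lowest, the med10-1002 libraries highest, and med21-1002 overlapped parent. IDP2 fell in med7-1002 (log2 −0.69, SE 0.18, adjusted p = 0.0126), a call lost with only these 2 groups in the fit (adjusted p = 0.0624) and without parent replicate 1 (0.0753). In med10-1002 it stood at log2 0.47 (adjusted p = 0.141, and 0.00248 without the med7-1002 libraries). IDP2 also differed between these mutants (med7-1002 minus med10-1002, log2 −1.16, SE 0.18, adjusted p = 0.000748). ICL1 and IDP2 thus both stood lowest in med7-1002 and highest in med10-1002. TAG1, on the IDP2 strand, shares 38 nt with the start of IDP2, so reads there are uncertain. Its log2 fold changes were −0.60, 0.14 and 0.72 in med7-1002, med21-1002 and med10-1002 (adjusted p = 0.0760, 0.811 and 0.115). The part of TAG1 in the IDP2 values was not tested.

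Lactate enters the cell through Jen1, a proton-coupled permease for lactate and pyruvate. JEN1 (YKL217W, chromosome XI, 21908 to 24218, plus strand) read 5.42 and 6.12 CPM for the parent pair, 9.58 and 15.3 for med7-1002, 3.46 and 3.66 for med21-1002, then 9.95 and 11.1 for med10-1002. Both med21-1002 libraries lay lowest, and med7-1002 and med10-1002 overlapped each other above parent. JEN1 rose 2.17-fold in med7-1002 (log2 1.12, SE 0.31, adjusted p = 0.0159). This call was lost with only these 2 groups in the fit (adjusted p = 0.0793) and without parent replicate 1 (0.118), parent replicate 2 (0.0931) or med10-1002 replicate 1 (0.0525). Without the med7-1002 libraries JEN1 was lower in med21-1002 (log2 −0.70, adjusted p = 0.0349) and higher in med10-1002 (log2 0.89, adjusted p = 0.00531); with all libraries neither passed (adjusted p = 0.249 and 0.125). The mutants med21-1002 and med10-1002 differed from each other (log2 −1.56, SE 0.32, adjusted p = 0.0115). That call was lost without any one library of either mutant (adjusted p between 0.0676 and 0.100).

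CYB2 (YML054C, chromosome XIII, 165445 to 167351, minus strand) encodes the L-lactate cytochrome c oxidoreductase of the mitochondrial intermembrane space. It read 9.83 and 10.4 CPM for the parent pair, 54.5 and 63.7 for med7-1002, 24.9 and 30.8 for med21-1002, then 9.86 and 12.2 for med10-1002. The med7-1002 libraries lay above med21-1002, and these above parent and med10-1002, which overlapped. CYB2 rose 5.85-fold in med7-1002 (log2 2.55, SE 0.20, adjusted p = 2.17e-05) and 2.75-fold in med21-1002 (log2 1.46, SE 0.19, adjusted p = 0.00237), and it stood at log2 0.12 in med10-1002 (adjusted p = 0.743). It was higher in med7-1002 than in med21-1002 (log2 1.09, SE 0.18, adjusted p = 0.00203), and higher in med21-1002 than in med10-1002 (log2 1.34, SE 0.19, adjusted p = 0.00225). Both calls against parent held in every alternative run.

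Both genes of the lactate pathway rose in med7-1002. In med21-1002 CYB2 rose while JEN1 stood at log2 −0.70 and did not pass, and the ratio of JEN1 to CYB2 (CPM per kb within a library) was 0.115 and 0.0979 there, against 0.455 and 0.487 in parent. It was 0.145 and 0.199 in med7-1002 and 0.833 and 0.752 in med10-1002. No mutant overlapped parent in this ratio.

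Of the genes 3 are covered on the opposite strand by a stable unannotated transcript (SUT), a noncoding RNA class of the annotation. SUT658 overlaps 2012 nt of JEN1 (87.1% of its span), SUT295 overlaps 1823 nt of CYB2 (95.6%) and SUT002 overlaps 1636 nt of ACS1 (69.4%). The strand setting of the counting is not given in the sources used here. Reads set aside as ambiguous were 0.0544% to 0.193% of each library, and both members of each pair had counts. SUT658 lies wholly inside JEN1 and had 752 and 675 counts in the parent libraries where JEN1 had 102 and 111, which counting without strand could not give, so the strands were kept apart there. SUT220, on the JEN1 strand, shares 133 nt with the start of JEN1, so reads there are uncertain.

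SUT658 read 39.97 and 37.2 CPM for the parent pair, 7.03 and 11.95 for med7-1002, 13.7 and 13.5 for med21-1002, then 69.0 and 68.4 for med10-1002. It fell in med7-1002 (log2 −2.00, SE 0.22, adjusted p = 0.000138) and in med21-1002 (log2 −1.50, SE 0.22, adjusted p = 0.00442) and rose in med10-1002 (log2 0.83, SE 0.21, adjusted p = 0.0467). No groups overlapped, from med7-1002 as the lowest to med10-1002 as the highest. JEN1 had the opposite sign to SUT658 in med7-1002 and the same sign in the others. Per kb, SUT658 exceeded JEN1 8.47-fold and 6.98-fold in the parent libraries and stood at 0.843 and 0.895 of it in med7-1002. SUT219, on the JEN1 strand and 691 nt before its start, moved like SUT658: it fell in med7-1002 (log2 −2.21, adjusted p = 4.91e-05) and med21-1002 (log2 −1.05, adjusted p = 0.0129) and rose in med10-1002 (log2 0.90, adjusted p = 0.0271).

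SUT295 read 29.9 and 36.5 CPM for the parent pair, 40.6 and 14.5 for med7-1002, 25.7 and 22.5 for med21-1002, then 65.3 and 69.2 for med10-1002. The med7-1002 libraries disagreed, and the med10-1002 libraries lay above the other 6. It did not pass in any mutant (adjusted p = 0.555, 0.546 and 0.134; log2 fold changes −0.29, −0.46 and 1.02). In med10-1002, where SUT295 stood highest, CYB2 stayed near parent. SUT002 did not pass either (adjusted p = 0.0951, 0.392 and 0.0628, with log2 fold changes 0.63, −0.47 and 1.01). Calls of SUTs come from the fit of all 8 libraries, which share 1 estimate of the spread. They were not checked under the alternatives, including the fit without the med7-1002 libraries.

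**Figure D3:**
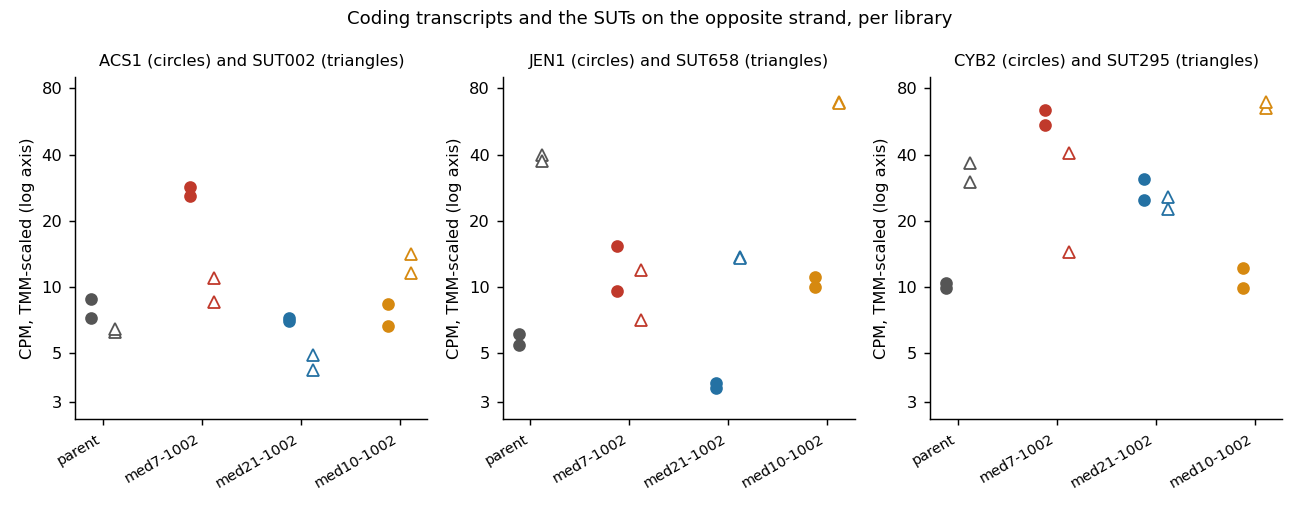
CPM (TMM-scaled, log axis) of ACS1, JEN1 and CYB2 (circles) and of the SUT on the opposite strand of each (open triangles) in each library. In parent SUT658 stands at 39.97 and 37.2 CPM above JEN1 at 5.42 and 6.12, and in med7-1002 CYB2 lies above SUT295 in both libraries.

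Several of the genes have relatives that act in another compartment. Reads could be split wrongly only where copies are nearly identical, and the coding sequences of the pairs were 53.2% to 73.8% identical over aligned bases, with identical runs of at most 23 bases. The ratio of MDH2 to MDH1, which encodes the mitochondrial malate dehydrogenase, was 1.26 and 1.32 in parent (CPM per kb). It read 0.406 and 0.357 for med7-1002, 0.586 and 0.537 for med21-1002, then 0.714 and 0.726 for med10-1002. No library of a mutant was as high as either parent library. The ratio of IDP2 to mitochondrial IDP1 was 0.204 and 0.199 for the parent pair, 0.0471 and 0.0446 for med7-1002, 0.147 and 0.176 for med21-1002, then 0.184 and 0.187 for med10-1002, again below parent in every mutant library. The ratio of peroxisomal CIT2 to mitochondrial CIT1 was 2.01 and 2.33 for the parent pair, 0.965 and 1.21 for med7-1002, 1.75 and 1.26 for med21-1002, then 2.45 and 2.57 for med10-1002. These ratios were not tested.

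**Figure D4:**
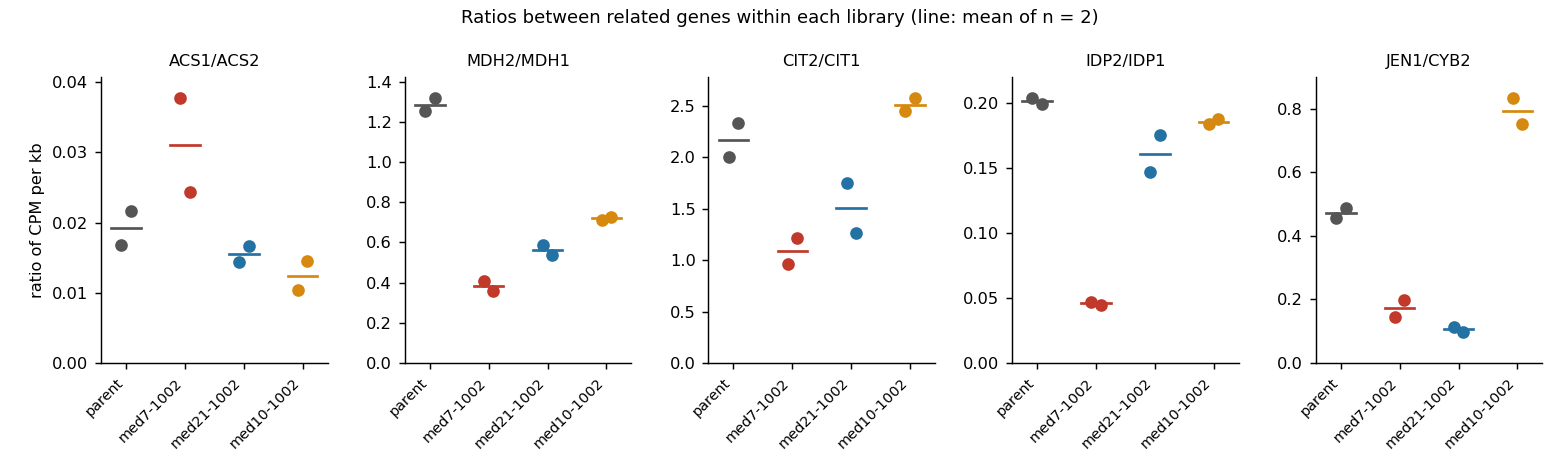
Ratios of CPM per kb between related genes within each library (linear axes from 0); points are libraries and lines the mean of n = 2. MDH2/MDH1 falls from 1.26 and 1.32 in parent to 0.357 to 0.726 in the mutants, and JEN1/CYB2 is highest in med10-1002.

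The mutants were also set against each other. Between med7-1002 and med21-1002 8 of the 9 genes passed (40.7% of all transcripts, 22.1% higher and 18.6% lower, or 1079 higher and 1518 lower by library size alone), with ACS1, ACS2, MLS1, JEN1 and CYB2 higher in med7-1002 and ICL1, MDH2 and IDP2 lower. Among these, MLS1 (log2 1.82, SE 0.60, adjusted p = 0.0392) was lost in 9 of 17 alternatives, IDP2 in 3 and ICL1 in 2, while JEN1 (log2 1.81, SE 0.32, adjusted p = 0.00242) was called in all 17. Between med7-1002 and med10-1002 7 passed (54.9% of all, 29.9% higher and 25% lower). By library size alone 1467 transcripts were higher and 1822 lower, against 1718 and 1436 here. Of the 9 genes, ACS1, ACS2 and CYB2 were higher in med7-1002, and ICL1, MDH2, CIT2 and IDP2 lower. ACS2 (log2 0.58, SE 0.19, adjusted p = 0.0255) was lost in 6 of 17 alternatives there. Between med21-1002 and med10-1002 4 passed (20% of all, 9.38% higher and 10.6% lower): CYB2 higher in med21-1002, and ICL1, CIT2 and JEN1 lower.

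The paralogs themselves were given as a list of 10 genes of other compartments or pathways. In med7-1002 6 of 10 rose and 2 fell, with a median log2 fold change of 0.74. MDH3, the peroxisomal malate dehydrogenase, rose (log2 1.49, adjusted p = 2.60e-05), as did ICL2, a mitochondrial relative of isocitrate lyase (1.52, adjusted p = 0.000785), IDP1 (1.44, adjusted p = 0.000502) and CIT1 (0.84, adjusted p = 0.000716). In med21-1002 2 rose, MDH1 (0.96, adjusted p = 0.00979) and CIT1 (0.50, adjusted p = 0.0477), with a list median of 0.26. In med10-1002 3 rose, with a list median of 0.52: DAL7, a malate synthase of allantoin breakdown (0.78, adjusted p = 0.0244), CIT1 (0.52, adjusted p = 0.0420) and ACO1, the mitochondrial aconitase (0.87, adjusted p = 0.0431). CIT1 thus passed in each mutant, though only just under the threshold in med21-1002 and med10-1002. Calls of genes in this and the other lists were not checked under the alternatives.

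Upstream of acetate, 7 of 8 listed genes of acetaldehyde and acetate metabolism were measured. In med7-1002 5 rose and 1 fell (25.9% and 22.6% of all transcripts, list median 1.00). In med21-1002 4 rose (3.88% of all, list median 0.65). In med10-1002 none passed in the fit of all 8 libraries (7.55% of all, list median 0.26). ADH2, the glucose-repressed alcohol dehydrogenase, went from 0.797 and 0.662 CPM in parent to 7.12 and 10.6 in med7-1002 (log2 3.59, SE 0.51, adjusted p = 0.000521). ALD4, the mitochondrial aldehyde dehydrogenase, rose in med7-1002 (1.59, adjusted p = 7.83e-05) and med21-1002 (0.65, adjusted p = 0.0399), and ACH1, a mitochondrial acetyl-CoA hydrolase and CoA transferase, rose in both as well (1.48 and 1.12, adjusted p = 0.000170 and 0.00528). ALD5 fell in med7-1002 (−0.82, adjusted p = 0.00155). ALD3, a stress-induced cytosolic form (1.68, adjusted p = 0.00236), and ALD6, the main cytosolic form (0.89, adjusted p = 0.0272), rose in med21-1002.

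Of 11 listed genes of gluconeogenesis, acetate and ammonium transport and the carnitine shuttle, 9 were measured. In med7-1002 2 rose and 2 fell (median −0.11), near the shares of all transcripts (25.9% and 22.6%). SFC1, the succinate-fumarate carrier, rose (2.35, SE 0.84, adjusted p = 0.0449), from 0.531 and 0.662 CPM in parent to 4.48 and 1.72. These levels are low and the med7-1002 libraries disagreed. YAT1, a carnitine acetyltransferase, rose as well (1.66, adjusted p = 0.00217). ATO3, an ammonium exporter (−1.37, adjusted p = 2.84e-05), and YAT2, the relative of YAT1 (−1.04, adjusted p = 0.00222), fell. ATO3 alone fell in med21-1002 (−1.21, adjusted p = 0.000538; list median −0.38). In med10-1002 it fell too (−0.47, adjusted p = 0.0379) and REG2, a regulatory subunit of a protein phosphatase, rose (1.30, adjusted p = 0.00551; list median 0.06). PCK1, which encodes the gluconeogenic phosphoenolpyruvate carboxykinase, passed in no mutant (log2 −0.64, −0.38 and 0.65; adjusted p = 0.189, 0.628 and 0.299).

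All 3 relatives of the lactate dehydrogenases were measured. In med7-1002 DLD1, a D-lactate dehydrogenase of mitochondria (0.70, adjusted p = 0.00649), and its relative DLD2 (1.19, adjusted p = 7.86e-05) rose. The cytosolic DLD3, which like CIT2 is a target of Rtg1-Rtg3, fell there (−0.98, adjusted p = 0.00119). DLD3 fell in med21-1002 as well (−0.72, adjusted p = 0.0316), and none of the 3 passed in med10-1002 in the fit of all 8 libraries. The list medians were 0.70, 0.35 and 0.07. DLD3 stood at 1095 and 1089 CPM in med10-1002, beside 1031 and 1048 in parent. The part of Rtg1-Rtg3 in the levels of DLD3 or CIT2 was not tested.

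Of 15 listed regulators 10 were measured. HAP4, the activating subunit of the Hap complex, rose in all 3 mutants: from 255 and 269 CPM in parent to 425 and 720 in med7-1002 (log2 1.13, adjusted p = 0.00321), 1111 and 1011 in med21-1002 (2.02, adjusted p = 0.00118) and 611 and 584 in med10-1002 (1.19, adjusted p = 0.0184). No other regulator passed in med21-1002 or med10-1002. In med7-1002 4 fell, among them RTG3 (−0.80, adjusted p = 0.000550), RDS2, an activator of gluconeogenic genes (−0.71, adjusted p = 0.00139) and PIP2, a factor of the response to fatty acids (−1.21, adjusted p = 0.00233). The list medians were −0.31, 0.11 and −0.08. SNF1 passed in no mutant (adjusted p = 0.461, 0.580 and 0.702).

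**Figure D5:**
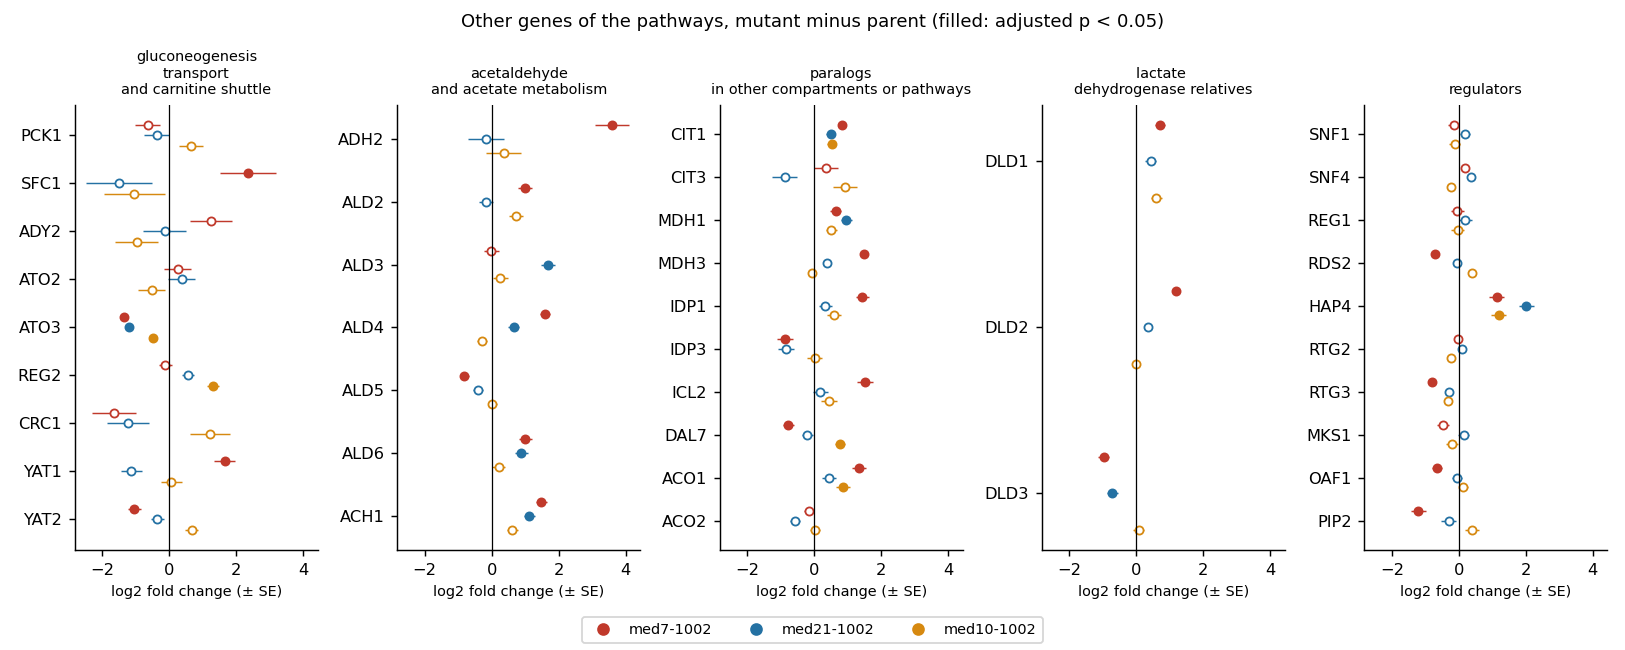
Log2 fold change against parent (± SE) of the measured genes of the 5 context lists in the 3 mutants; filled points have an edgeR adjusted p under 0.05. HAP4 and CIT1 are filled and above 0 in all 3 mutants, and ADH2 reaches 3.59 in med7-1002.

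Possession of a CSRE match did not go with one direction. The 4 genes with a match, whose sites are printed above, gave in med7-1002 a rise of ACS1, falls of ICL1 and MDH2 and no call for MLS1. Of all 24 genes with a match, 6 rose and 5 fell in med7-1002 (25.9% and 22.6% of all transcripts), which is near the background. In med21-1002 1 rose (3.88% of all transcripts) and in med10-1002 2 rose (4.93%). The median log2 fold changes of the 24 genes were −0.08, −0.10 and 0.07. Some of these sites lie between divergent genes and count for both, as for ACS1 and FLC2, MLS1 and DCP2, and MDH2 and TRM13.

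Genes whose 3 fold changes lay nearest to those of a member are named here without a test. With only 3 values a gene, all against the same parent libraries, unrelated genes can lie close, so no conclusion is drawn. Near genes were sought for the 6 members with a called change of at least 1 on the log2 scale. Nearness was the root mean square (RMS) difference over the 3 mutants. Candidates were 4583 coding transcripts (4584 for JEN1) whose log2 CPM averaged 3 or more. ERG2, a sterol isomerase, was nearest to ACS1 (RMS difference 0.0706) with YSY6 next (0.121), and YEF3, a translation elongation factor, was nearest to ACS2 (0.0271) with YKR070W next (0.0487). MPA43 (0.0691) and VBA2, a vacuolar permease (0.0838), were nearest to ICL1, and MSC3 (0.0389) and ERO1, the thiol oxidase of the endoplasmic reticulum (0.0460), to MDH2. COX13, a subunit of cytochrome c oxidase (0.205), and MRA1 (0.238) were nearest to CYB2. YKR015C (0.187) and the ribosomal protein gene RPL7B (0.311) were nearest to JEN1.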

How the data were processed

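The tools named in the submitters' processing notes are HTSeq, SAMtools and STAR 2.3.0, and the builds R64 and sacCer3. How strand, overlaps and multiply mapped reads were handled when counting is not stated there. The authors deposited 1 table of unnormalized counts per library, with a row for each transcript. Reads outside transcripts (49.6% in med7-1002 replicate 1 and 32.8% to 37.8% in the other libraries) entered neither library sizes nor tests. Of 4928 coding transcripts 4842 matched RefSeq R64 by systematic name, and each contained its gene's coding interval.

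Counts of all 8 libraries were fitted in edgeR 4.0.16 (R 4.3.3) with a term per group after TMM scaling and filterByExpr (minimum count 10), which left 5746 of 6030 transcripts and 4 residual degrees of freedom. Levels are relative to the library, so a change of all RNA per cell cannot be seen. P-values measure the spread between 2 libraries a group, which may be technical. Alternatives changed the scaling, filter, test (DESeq2 1.42.0), libraries, block and length correction.

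Members and lists were chosen with earlier results of these data known. Named genes are the 9 members and the 4 or fewer called genes per list and mutant by adjusted p. The 2 coding transcripts nearest to a member were named too. SUTs beside members, TAG1, DLD3 in med10-1002, PCK1 and SNF1 were added after their values were seen.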

Additional observations from a re-analysis of the deposited data

How the results depend on the processing

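Of 54 results (9 genes in 6 comparisons) 29 were called, 19 of them under every alternative, and no called result changed sign. Another 13 were called under at least 1 alternative only. For med21-1002 against parent the count of called genes was 1, against 2 with only the 2 groups compared, 4 without the med7-1002 libraries, and 1 to 4 leaving out single libraries. For med10-1002 against parent it was 2, against 6 with only the 2 groups, 5 without the med7-1002 libraries, 1 with the replicate block, and 0 to 6 leaving out single libraries. For med7-1002 against med21-1002 it was 8, against 5 with only the 2 groups, and 5 to 9 leaving out single libraries. For med21-1002 against med10-1002 it was 4, against 7 with only the 2 groups, 7 without the med7-1002 libraries, and 2 to 7 leaving out single libraries. The cause of these changes was not tested. The block took CIT2 in med10-1002 to an adjusted p of 0.0748; same-numbered libraries did not pair, with correlations of their deviations between −0.186 and 0.0938. Counts over all transcripts ranged from 1847 to 3936 in med7-1002 (2790 in the fit reported), 107 to 1695 in med21-1002 (448) and 34 to 2997 in med10-1002 (434) against parent. Between mutants they ranged from 1265 to 3898 (2338) for med7-1002 against med21-1002, from 2080 to 4150 (3154) for med7-1002 against med10-1002 and from 295 to 2751 (1150) for med21-1002 against med10-1002. Library size alone moved the median of all transcripts by −0.11 (log2) in med7-1002. Depth limits MLS1 most, at 8 to 48 counts per library.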
